A study of Mus musculus with 12 samples.

Results

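The effect of vitamin B12 supplementation on the transcriptome of fibroblasts 72 h into reprogramming was examined by bulk RNA-seq. The comparison used the 6 OSKM libraries of the 12 in the series, namely those grown with doxycycline and no added B12 (OSKM, n = 3) and those grown with doxycycline and 2 µM B12 (OSKM+B12, n = 3). All 6 came from i4F mouse embryonic fibroblasts (MEFs), in which doxycycline switches on a transgene for Oct4, Sox2, Klf4 and cMyc (OSKM), the factors that reprogram fibroblasts to pluripotent cells, taken from C57BL/6 embryos at E13.5. The OSKM libraries without B12 therefore carried the transgene and received doxycycline too, at 1 µg/ml per the labels, and both groups were kept in iPSC medium with knockout serum replacement and LIF. Each clone in the labels is the MEFs of 1 embryo, so clones 1, 2 and 3 each gave 1 library with and 1 without B12, and the libraries were paired by clone. The other 6 libraries (MEF and MEF+B12, n = 3 each) held cells of the same clones without doxycycline and serve below as the second readout of the same supplement. MEF cultures are outgrowths of whole embryo tissue and not a sorted cell type.

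Vitamin B12 is the cofactor of methionine synthase, which regenerates methionine from homocysteine and so feeds S-adenosylmethionine, the methyl donor of histone and DNA methylation. It is also the cofactor of mitochondrial methylmalonyl-CoA mutase. Cells take it up bound to transcobalamin through the receptor CD320. OSKM induction turns down fibroblast genes and turns on epithelial and later pluripotency genes over many days. Fibroblast cultures from embryos can also hold resident macrophages, phagocytes that depend on the growth factor CSF1, on its receptor CSF1R and on the transcription factor PU.1, and that recycle iron and clear dying cells.

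The 6 OSKM-state libraries held 57178917 to 79236795 counted read pairs. One of them stood apart. Levels are given in CPM, which are counts scaled to a common library total. Over 1518 pseudogenes averaging 2 CPM or more, the log2 difference of the clone 1 OSKM library from the other libraries of its clone had an SD of 0.478, against 0.0948 to 0.212 in the other 11 libraries, and calls lost without it are given below. Pou5f1 and Sox2 checked the labels, and the counts of the induced factors add transgene and endogenous transcripts together. Pou5f1, which encodes Oct4, was at 19.3, 18.5 and 2.86 CPM in OSKM clones 1, 2 and 3 and 20.7, 19.0 and 2.34 CPM in OSKM+B12, and Sox2 at 15.5, 13.3 and 2.33 and 16.0, 17.8 and 2.18 CPM. Clone 3 was low for both in both groups, and the 6 libraries without doxycycline lay below all 6. Myc was at 53.4, 44.0 and 20 CPM in OSKM and 50.4, 43.6 and 21.9 CPM in OSKM+B12, while Klf4 ranged from 108 to 123 CPM over the 6 libraries. Summed over the 4 factors, clones 1, 2 and 3 were at 162, 161 and 143.0 CPM in MEF. The sums were 210, 198 and 143.9 CPM in OSKM and 202, 200 and 134.7 CPM in OSKM+B12, so clone 3 showed no raised total. Of these 4 genes 0 passed the test between OSKM+B12 and OSKM, with log2 fold changes of -0.03 (SE 0.13) for Pou5f1, 0.17 (SE 0.29) for Sox2, -0.08 (SE 0.05) for Klf4 and -0.0026 (SE 0.23) for Myc.

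B12 supplementation of OSKM cells was followed by a small set of changes that was almost entirely upward. Of 19174 genes tested, 201 were higher and 3 were lower in OSKM+B12 (edgeR's quasi-likelihood test with the clone as a block, Benjamini-Hochberg adjusted p under 0.05). These are 1.05% and 0.0156% of the genes tested, 1.06% in all. Most of the rises were modest, with log2 fold changes from 0.24 to 1.76 and a median of 0.69, which is 1.61-fold. Of the 201, 19 rose by at least 1 on the log2 scale, 138 by 0.5 to 1 and 44 by less than 0.5. All 201 were higher in 3 of 3 clones, and in 158 of them the 3 OSKM+B12 libraries lay above the 3 OSKM libraries without overlap, an order that 4.80% of all genes tested also had, while 2.72% had the opposite order. Together the 201 genes took 0.663%, 0.505% and 0.458% of the counts in OSKM clones 1, 2 and 3, and 0.906%, 0.811% and 0.725% in OSKM+B12. Of the rises, 122 were also called when the OSKM library of clone 1 was left out. A fit to the 6 OSKM libraries alone, with the block, called 108 genes. Without the block 0 genes passed, with 763 at an unadjusted p under 0.05.

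The genes with the largest rises included membrane receptors and chemokines of macrophages, the dicarboxylate carrier gene Slc13a3 and the transferrin receptor gene Tfrc. Macrophage markers moved with them, and their values are given first so that the myeloid gene groups below can be read beside them. Their list was chosen with earlier results of these data known, as were the other lists not said to be chosen after the values were seen. Counts over these lists are therefore a description and not support. Of 14 macrophage markers tested, 8 rose with B12 in OSKM cells, 12 were at an unadjusted p under 0.05, and the median log2 fold change of the 14 was 0.58, beside -0.01 over all genes. The 8 were Adgre1, which encodes the F4/80 antigen, Csf1r, Ptprc, which encodes CD45, Fcgr1, Mrc1 and the complement genes C1qa, C1qb and C1qc. Summed over the 14 markers, the level was 2391, 1536 and 1389.5 CPM in OSKM clones 1, 2 and 3 and 2798, 2579.8 and 2129 CPM in OSKM+B12. The sum was higher with B12 by 1.17-fold, 1.68-fold and 1.53-fold in the 3 clones, and the groups overlapped, since clone 1 without B12 lay above clone 3 with B12. These markers took between 0.137% and 0.248% of all counts in OSKM and between 0.213% and 0.298% in OSKM+B12. In bulk RNA, fewer cells of a type and less RNA per cell cannot be told apart, so these values do not separate more macrophages from more of these transcripts per macrophage. Without the OSKM library of clone 1, 3 of the 14 rose, Fcgr1, Mrc1 and C1qc.

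**Figure D1:**
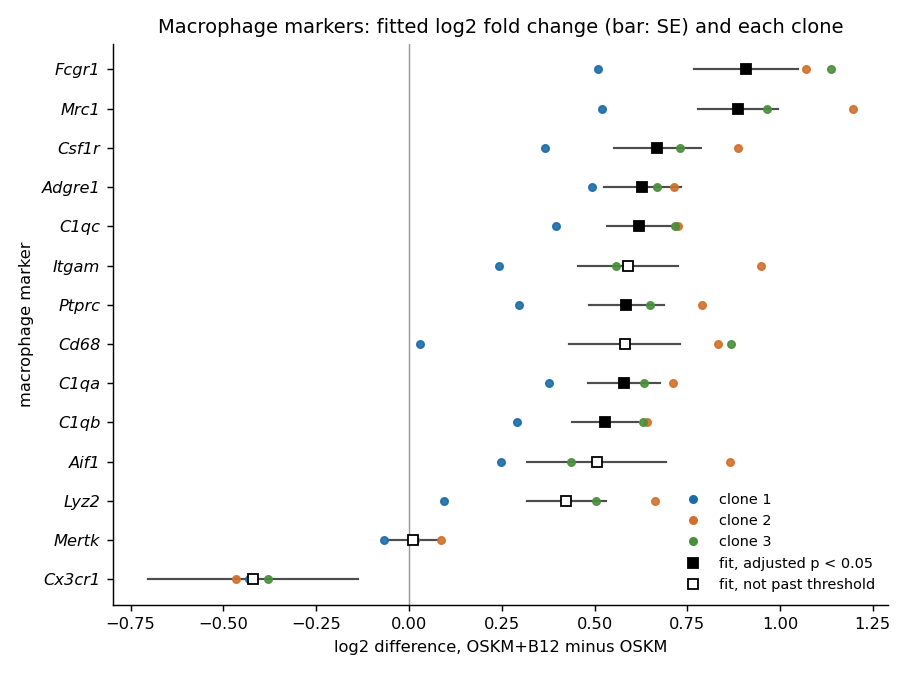
Log2 difference (OSKM+B12 minus OSKM, x axis) of the 14 macrophage markers tested, with the edgeR fold change as a square (filled where adjusted p was under 0.05, bar of 1 SE) and each clone as a dot. The 8 filled squares lie between 0.53 and 0.91, those of Mertk and Cx3cr1 at 0.01 and -0.42.

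The marker genes differed among themselves. Adgre1 was at 91.1, 67.7 and 65.7 CPM in OSKM clones 1, 2 and 3 and 128, 111 and 104 CPM in OSKM+B12 (log2 fold change 0.63, SE 0.10, adjusted p = 0.0187; 0.0724 without OSKM clone 1). Csf1r was at 106, 71.9 and 75.1 CPM and 137, 133 and 125 CPM (log2 fold change 0.67, SE 0.12, adjusted p = 0.0237), and its adjusted p was 0.0702 once OSKM clone 1 was left out. For both genes the 3 OSKM+B12 libraries lay above the 3 OSKM libraries. Mrc1, the mannose receptor CD206, was at 314, 143 and 121 CPM in OSKM and 450.0, 327 and 237 CPM in OSKM+B12 (log2 fold change 0.89, SE 0.11, adjusted p = 0.00479), and here clone 1 without B12 exceeded clone 3 with B12. Cd68, Itgam, Lyz2 and Aif1 had log2 fold changes of 0.58 (adjusted p = 0.127), 0.59 (0.0830), 0.42 (0.121) and 0.51 (0.388) and did not pass. Mertk, a receptor for apoptotic cells, had 0.01 (SE 0.07), and Cx3cr1, the fractalkine receptor of resident macrophages, had -0.42 (SE 0.28, adjusted p = 0.661).

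Genes of other blood cells were close to absent. Of 12 markers of lymphocytes, neutrophils, mast cells and progenitors and 6 erythroid markers, 0 had enough counts to be tested, and no gene of these lists had more than 24 counts over the 12 libraries together.

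Among the transcription factors that specify macrophages, 3 of 11 rose, Spi1, Irf5 and Maf, with a median of 0.30 over the 11. Spi1 encodes PU.1, the factor that directs myeloid development. It was at 28.0, 23.1 and 25.1 CPM in OSKM and 37.5, 41.3 and 43.6 CPM in OSKM+B12 (log2 fold change 0.70, SE 0.13, adjusted p = 0.0294). The groups did not overlap. Irf5, an activator of inflammatory genes, rose by 0.75 (SE 0.13, adjusted p = 0.0261), and Maf by 0.30 (SE 0.05, adjusted p = 0.0199). Once OSKM clone 1 was left out 0 of the 3 passed in edgeR, with adjusted p-values of 0.102 for Spi1, 0.0891 for Irf5 and 0.0579 for Maf. Of 8 colony stimulating factor ligands and receptors 1, Csf1r, rose, a call lost without OSKM clone 1 as given above. Csf1, its ligand, had a log2 fold change of -0.09 (SE 0.06) and did not pass.

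Receptors for sugars, lipids and debris formed one of the larger groups. Of 19 C-type lectins and scavenger receptors tested, 8 rose with B12, and the median of the 19 was 0.77. The 8 were Clec4a1, Clec4a2, Clec4a3, Clec4d, Mrc1, Msr1, Cd36 and Stab1. Clec4a2, an inhibitory lectin of myeloid cells, was at 5.07, 3.51 and 4.13 CPM in OSKM and 9.31, 9.79 and 11.4 CPM in OSKM+B12 (log2 fold change 1.28, SE 0.14, adjusted p = 0.00310). The groups did not overlap, and the level was higher in 3 of 3 clones. Msr1, the class A scavenger receptor that takes up modified lipoproteins, rose by 0.85 (SE 0.10), Cd36, a fatty acid and lipoprotein receptor, by 0.85 (SE 0.14), and Stab1, which clears debris, by 0.77 (SE 0.08). Marco, a scavenger receptor for bacteria, had a log2 fold change of 1.48 with an SE of 0.39 and did not pass (adjusted p = 0.144).

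Of 15 Fc receptors and their adaptors 6 rose, Fcgr1, Fcgr4, Trem2, Pirb, Cd300a and Cd300c2, with a median of 0.49 over the 15. Fcgr1, the high-affinity IgG receptor, was at 17.4, 10.3 and 9.11 CPM in OSKM and 24.8, 21.6 and 20.1 CPM in OSKM+B12 (log2 fold change 0.91, SE 0.14, adjusted p = 0.0141), with no overlap. The shared adaptors of these receptors, Fcer1g and Tyrobp, had 0.37 (SE 0.14) and 0.42 (SE 0.11) and did not pass. Related CD300 genes outside this list were among the largest rises, namely Cd300ld2 (1.28), Cd300ld4 (1.16), Cd300ld3 (1.04) and Cd300ld5 (1.01). These 4 share 45.0%, 96.2%, 84.1% and 100% of their 31-base words with other genes, so the split of reads between them is uncertain.

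Genes that act inside the cell below these receptors rose as well. In lists chosen after these values were seen, 10 of 14 genes of ITAM and Src family signalling rose (median 0.61), among them the kinases Syk, Lyn and Btk, and 13 of 16 actin regulators of blood cells (median 0.62), among them Coro1a, Was, Dock2 and Fermt3. Inpp5d, which encodes the inositol phosphatase SHIP1, was at 22.2, 15.9 and 15.8 CPM in OSKM and 34.4, 32.6 and 28.1 CPM in OSKM+B12 (log2 fold change 0.83, SE 0.08, adjusted p = 0.00293), with no overlap. Of 11 genes of Toll-like receptors and a relative 5 rose, of which the largest was that relative, Cd180, at 0.93 (SE 0.14). Among the subunits of the phagocyte NADPH oxidase, which makes superoxide, Ncf4 and Rac2 rose by 0.68 and 0.63, and the catalytic subunit gene Cybb had 0.18 (SE 0.14) and did not pass. Of 9 genes of the Ms4a family of membrane proteins 4 rose, Ms4a6b, Ms4a6c, Ms4a6d and Ms4a7. Without OSKM clone 1, 8 of the 14 signalling genes, 7 of the 16 actin regulators, 3 of the 11 Toll-like genes and 4 of the 9 Ms4a genes were called, and Ncf4 was not (adjusted p = 0.0520). The fit to the 6 OSKM libraries alone called 7, 6, 2 and 3 genes of these lists, and 0 NADPH oxidase genes. Because the lists were drawn up from the rises themselves, their counts are a description and not support. By the naming rule, Dok2, an adaptor below cytokine receptors, rose by 1.07 (SE 0.13), the interleukin receptor gene Il21r by 1.05 (SE 0.12), and Lrrc25 by 0.95 (SE 0.10). Hk3, a hexokinase of myeloid cells chosen after its value was seen, rose by 0.89 (SE 0.12). Adam8, a metalloprotease that sheds surface proteins, was at 61.7, 41.9 and 51.4 CPM in OSKM and 103, 89.0 and 107 CPM in OSKM+B12 (log2 fold change 0.97, SE 0.15, adjusted p = 0.0138), with no overlap.

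Chemokines and complement were examined as secreted products. Of 21 chemokine ligands tested 6 rose, Ccl2, Ccl4, Ccl7, Ccl9, Ccl12 and Pf4, with a median of 0.42. Ccl12, which attracts monocytes, was at 18.8, 7.57 and 4.18 CPM in OSKM clones 1, 2 and 3 and 37.6, 20.8 and 14.3 CPM in OSKM+B12 (log2 fold change 1.39, SE 0.12, adjusted p = 0.00105). Each clone rose, but clone 1 without B12 lay above clone 3 with B12, so the groups overlapped. Ccl2, a monocyte attractant that fibroblasts also make, was at 76.9, 41.2 and 37.7 and 132, 63.5 and 61.9 CPM (log2 fold change 0.71, SE 0.08, adjusted p = 0.00439). Ccl9 was at 110.1, 62.1 and 37.7 and 154, 131 and 84.0 CPM (log2 fold change 0.91, SE 0.12, adjusted p = 0.00707). In both genes clone 1 was the highest of each group, and the groups overlapped. Tnf, an inflammatory cytokine outside the list, rose by 0.89 (SE 0.17). Pf4, platelet factor 4, was at 7.15, 2.77 and 2.23 and 15.2, 5.50 and 4.46 CPM (log2 fold change 1.03, SE 0.19, adjusted p = 0.0296), and its adjusted p was 0.141 once OSKM clone 1 was left out. In 0 of the 21 genes were the groups free of overlap. Cxcl12 and Ccl11, ligands made by stromal cells, had -0.08 (SE 0.10) and -0.03 (SE 0.10). Of 16 complement genes 6 rose (median 0.27), namely C1qa, C1qb and C1qc, the anaphylatoxin receptor genes C3ar1 and C5ar1, and Cfp, which encodes properdin. Without OSKM clone 1, 3 of the 16 complement genes and 5 of the 21 chemokine genes were called. C1ra, C1s1 and C3 had -0.08, -0.09 and -0.04, with SEs of 0.06, 0.06 and 0.14, and did not pass.

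**Figure D2:**
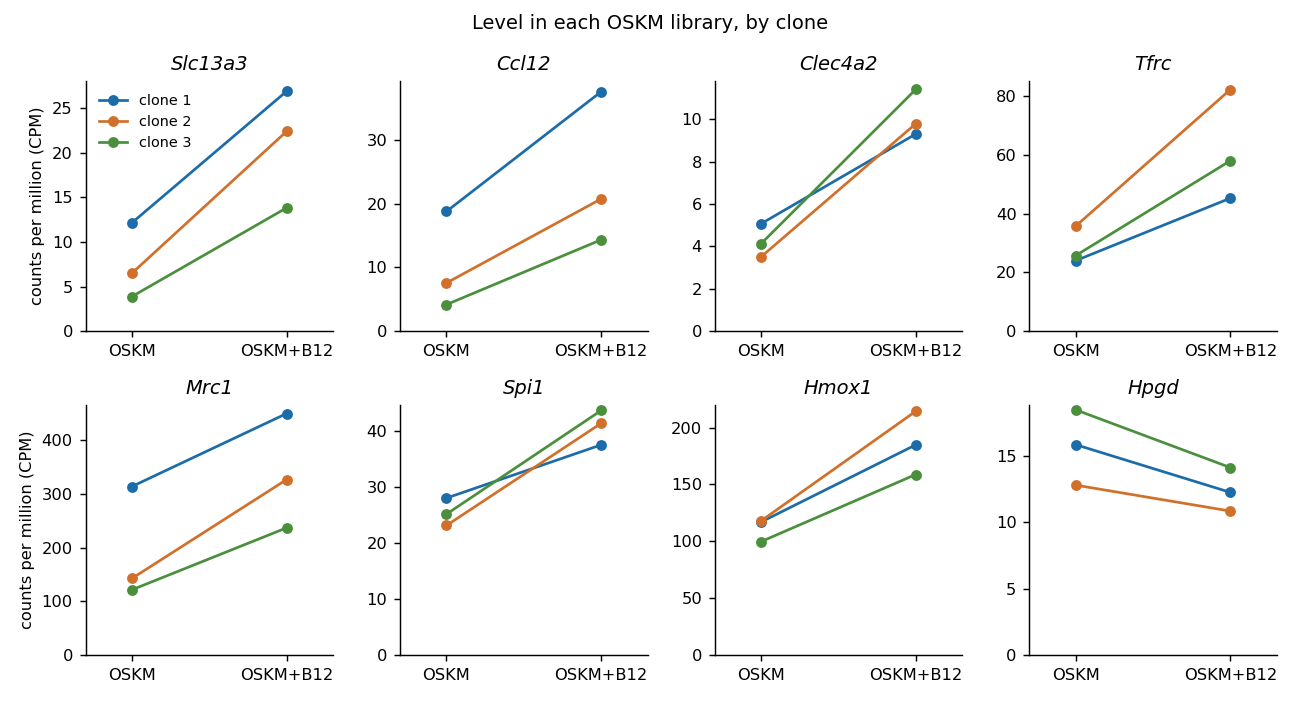
Level (CPM on a linear axis from 0) of 8 genes in each of the 6 libraries, with a line joining the OSKM and OSKM+B12 library of a clone. Slc13a3 had 12.2, 6.50 and 3.89 CPM in OSKM clones 1, 2 and 3 and 26.9, 22.4 and 13.8 CPM in OSKM+B12, and its lines rise in 3 of 3 clones, as do those of Ccl12, Clec4a2, Tfrc, Mrc1, Spi1 and Hmox1, while those of Hpgd fall.

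The largest rise among named genes was that of Slc13a3 (ENSMUSG00000018459, GRCm38 chromosome 2, 165405028 to 165473230, minus strand), a sodium-coupled carrier that brings succinate and other dicarboxylates into the cell. Slc13a3 was at 12.2, 6.50 and 3.89 CPM in OSKM clones 1, 2 and 3 and 26.9, 22.4 and 13.8 CPM in OSKM+B12. The 3 libraries with B12 lay above the 3 without (2.96-fold, log2 fold change 1.57, SE 0.14, adjusted p = 0.00124). The rise was larger than that of any of the 14 macrophage markers, of which the largest was 0.91, as it was for 26 of the 201 genes in all. Among the 26 were myeloid genes given above, such as Clec4a2, Ccl12 and Cd180. Whether the rise goes beyond macrophage content was not tested. Of the 5 other dicarboxylate and citrate carriers tested 0 passed, and the mitochondrial carriers Slc25a1, Slc25a10 and Slc25a11 had -0.06, 0.14 and 0.05. Slc28a2, a nucleoside carrier with 46.3% shared words, rose by 1.16 (SE 0.17). Ccr3, an eosinophil chemokine receptor that the naming rule left out as too low, had the highest fold of the 201 (1.76, SE 0.35, adjusted p = 0.0447) at under 1 CPM in the 6 libraries, and was not called without OSKM clone 1 (adjusted p = 0.191).

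Iron and heme genes rose in part. Of 17 iron handling genes tested 4 rose, Tfrc, Slc11a1, Hmox1 and Blvra, with a median of 0.09 over the 17. Tfrc (ENSMUSG00000022797, chromosome 16, 32608920 to 32632794, plus strand), the transferrin receptor by which cells import iron, was at 24.0, 35.7 and 25.7 CPM in OSKM clones 1, 2 and 3 and 45.2, 82.2 and 58.0 CPM in OSKM+B12 (2.15-fold, log2 fold change 1.10, SE 0.09, adjusted p = 0.00105). Hmox1, the heme oxygenase that frees iron from heme, was at 117, 118 and 99.7 and 185, 214 and 159 CPM (1.66-fold, log2 fold change 0.73, SE 0.06, adjusted p = 0.00105). For both genes the 3 libraries with B12 lay above the 3 without. Slc11a1, which moves iron out of the phagosome, rose by 0.80 (SE 0.13), and Blvra, the biliverdin reductase that acts after Hmox1, by 0.29 (SE 0.06). Fth1, Ftl1 and Slc40a1, the ferritin chains and the iron exporter ferroportin, had 0.27 (SE 0.11), 0.28 (SE 0.08) and 0.03 (SE 0.06) and did not pass. Flvcr1, which exports heme and lies outside the list, rose by 0.37 (adjusted p = 0.0458). In a list chosen after the values were seen, 4 of 17 targets of the stress factor NRF2 rose, Hmox1, Abcc1, Pgd and Taldo1, while 16 of the 17 had positive changes (median 0.25). The 7 enzymes of the pentose phosphate pathway were also listed after the values were seen. Of these 2 rose, the same Pgd and Taldo1, by 0.29 (SE 0.04) and 0.25 (SE 0.05). In the fit to the 6 OSKM libraries alone 0 of the 7 passed. The calls of Taldo1 and Flvcr1 were lost without OSKM clone 1 (adjusted p = 0.116 and 0.123).

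Promoter sequence is shown for 4 genes of different groups, chosen because their promoters hold a match to one of 4 motifs searched, the carrier gene Slc13a3, the receptor gene Cd300ld3, the chemokine gene Pf4 and the signalling gene Inpp5d. Each line gives the 250 bases before the RefSeq start (build GRCm38.p6), 5′ to 3′ in the direction of the gene, at chr2:165473198-165473447 on the minus strand for Slc13a3, chr11:115048331-115048580 on the minus strand for Cd300ld3, chr5:90772185-90772434 on the plus strand for Pf4 and chr1:87620062-87620311 on the plus strand for Inpp5d. Capitals mark the motif matches, searched on both strands. They are CACGTG, an E-box that MITF and TFE factors bind among others, and TGACNNNGC, the antioxidant response element, in Slc13a3. In the other 3 genes the match is GAGGAAGT, the site of PU.1. Among all 32851 promoters given by RefSeq, the shares that hold these motifs in the same window are 6.02%, 10.2% and 2.44%. In Slc13a3 the E-box began 154 bases and the antioxidant element 201 bases before the start. The PU.1 site began 187 bases before the start in Cd300ld3, 20 in Inpp5d, and 10 in Pf4, where it was on the opposite strand and reads ACTTCCTC.
Slc13a3: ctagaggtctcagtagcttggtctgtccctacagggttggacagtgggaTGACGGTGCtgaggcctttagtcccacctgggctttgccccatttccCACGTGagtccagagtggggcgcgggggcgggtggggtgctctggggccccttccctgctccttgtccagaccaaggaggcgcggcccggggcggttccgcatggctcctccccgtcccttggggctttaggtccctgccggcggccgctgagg
Cd300ld3: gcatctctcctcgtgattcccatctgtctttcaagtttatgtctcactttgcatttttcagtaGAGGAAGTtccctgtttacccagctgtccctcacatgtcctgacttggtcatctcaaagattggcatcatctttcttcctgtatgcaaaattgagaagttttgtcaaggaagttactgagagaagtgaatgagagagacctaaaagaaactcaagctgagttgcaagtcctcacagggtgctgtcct
Pf4: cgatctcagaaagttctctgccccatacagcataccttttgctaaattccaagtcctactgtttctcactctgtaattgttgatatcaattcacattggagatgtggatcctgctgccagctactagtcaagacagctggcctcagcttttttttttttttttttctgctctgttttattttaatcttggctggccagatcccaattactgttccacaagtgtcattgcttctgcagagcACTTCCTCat
Inpp5d: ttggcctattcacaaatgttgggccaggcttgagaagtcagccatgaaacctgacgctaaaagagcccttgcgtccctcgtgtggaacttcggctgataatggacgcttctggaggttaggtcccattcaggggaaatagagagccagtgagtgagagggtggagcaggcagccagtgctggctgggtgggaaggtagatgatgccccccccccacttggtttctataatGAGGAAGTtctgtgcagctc
Of the 140 called genes whose promoters could be searched, 97 held none of the 4 motifs, of which the fourth was the interferon response element (2.98% of all promoters). Ccl12, Clec4a2, Tfrc and Fcgr1 were among the genes without a match. A motif match describes the letters and is not evidence of binding. The promoter of Cd300ld3 is identical at 237 of 250 bases to those of Cd300ld4 and Cd300ld5, and these 2 are the same at 250 of 250. The promoter table held 140 of the 204 called genes (68.6%), so no share of each single motif over the called genes was computed. The 97 were counted by gene and the shares of all promoters by promoter. No share of all promoters without any of the 4 motifs was computed, so the 97 have no background to be read against.

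Several of the rising genes are neighbours in the genome. Counted over protein-coding rises no more than 1 Mb apart, 9 runs held at least 3 of them. The 3 C1q genes on chromosome 4 (136880129 to 136898803) were the 3 of 3 tested coding genes in their run, and Ccl2, Ccl7 and Ccl12 on chromosome 11 (82035571 to 82103400) were 3 of 4. The CD300 cluster on chromosome 11 (114890041 to 115247023) had 7 of 12, the C-type lectin cluster with C3ar1 on chromosome 6 (122847138 to 123275265) 5 of 7, and the Trem cluster on chromosome 17 (48149126 to 48354147) 4 of 5. These are families of adjacent duplicated genes.

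Falls were few and small. Hpgd, which inactivates prostaglandins, was at 15.8, 12.8 and 18.5 CPM in OSKM clones 1, 2 and 3 and 12.2, 10.8 and 14.1 CPM in OSKM+B12 (0.793-fold, log2 fold change -0.33, SE 0.06, adjusted p = 0.0211). Ttc8, a subunit of the BBSome of cilia, was at 23.3, 17.0 and 17.8 and 18.4, 14.6 and 14.9 CPM (0.826-fold, log2 fold change -0.28, SE 0.05, adjusted p = 0.0431). Both were lower in 3 of 3 clones while the groups overlapped. Gm5424, a pseudogene with 84.7% shared words, was the other fall (log2 fold change -0.29, SE 0.06, adjusted p = 0.0483). Without the OSKM library of clone 1, 0 of the 3 passed, with adjusted p-values of 0.0564 for Hpgd, 0.121 for Ttc8 and 0.114 for Gm5424. In a list of 14 prostaglandin and leukotriene enzymes chosen after the values were seen, Alox5ap, Hpgds and Tbxas1, which make these lipids in myeloid cells, rose by 0.67, 0.65 and 0.64. The median of the 14 was 0.04, with 9 higher and 5 lower. In the fit to the 6 OSKM libraries alone 0 of the list passed.

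The pathways in which B12 acts showed little change of transcript level. Of 24 genes of the methionine and folate cycles tested 0 passed and 0 were at an unadjusted p under 0.05. Their log2 fold changes ranged from -0.30 to 0.16 with a median of 0.01 and a median SE of 0.08. Mtr, methionine synthase, was at 33.4, 25.6 and 31.4 CPM in OSKM and 35.9, 27.9 and 30.4 CPM in OSKM+B12, and its difference of 0.06 (SE 0.08) was within the spread between libraries. Of 16 genes of B12 uptake and handling 1 rose, Abcc1, the transporter that exports B12 from cells and other substrates. Abcc1 was at 57.7, 47.5 and 48.3 and 67.6, 61.8 and 57.1 CPM (log2 fold change 0.28, SE 0.04, adjusted p = 0.0138), with groups that overlapped. It was not called in the fit to the 6 OSKM libraries alone. The receptor gene Cd320 and the carrier gene Tcn2 had 0.06 (SE 0.09) and -0.08 (SE 0.05), and the median of the 16 was 0.05.

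The enzymes of H3K36 methylation, the mark the study followed, were compared next. Of 12 writers and erasers 0 passed and 1 was at an unadjusted p under 0.05 (median -0.06). Setd2, the enzyme of H3K36 trimethylation, was at 102, 79.2 and 95.5 CPM in OSKM and 89.2, 85.2 and 80.3 CPM in OSKM+B12 (log2 fold change -0.11, SE 0.08, adjusted p = 0.684), and Nsd2, which makes the dimethyl mark, had 0.16 (SE 0.04, adjusted p = 0.141). Transcript levels say nothing of enzyme activity or of the mark itself. Of the 11 methionine deprivation genes of the study 0 passed and 3 were at an unadjusted p under 0.05. Of these 11, 9 were lower with B12 and the median was -0.11. The study picked the 11 after comparing pancreas genes of that signature with those whose rise B12 relieved in induced MEFs at 72 h. Their direction here is therefore not independent evidence. Of 16 amino acid response genes 0 passed and 3 were at an unadjusted p under 0.05 (median -0.05). Of 25 proliferation genes 1 rose, the replication helicase gene Mcm5, at 47.9, 40.7 and 38.4 and 58.6, 46.9 and 44.8 CPM (log2 fold change 0.24, SE 0.04, adjusted p = 0.0220), and 22 of the 25 were higher (median 0.07). The call of Mcm5 was lost without OSKM clone 1 (adjusted p = 0.0520), without each of the 3 clones and in the fit to the 6 OSKM libraries alone.

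**Figure D3:**
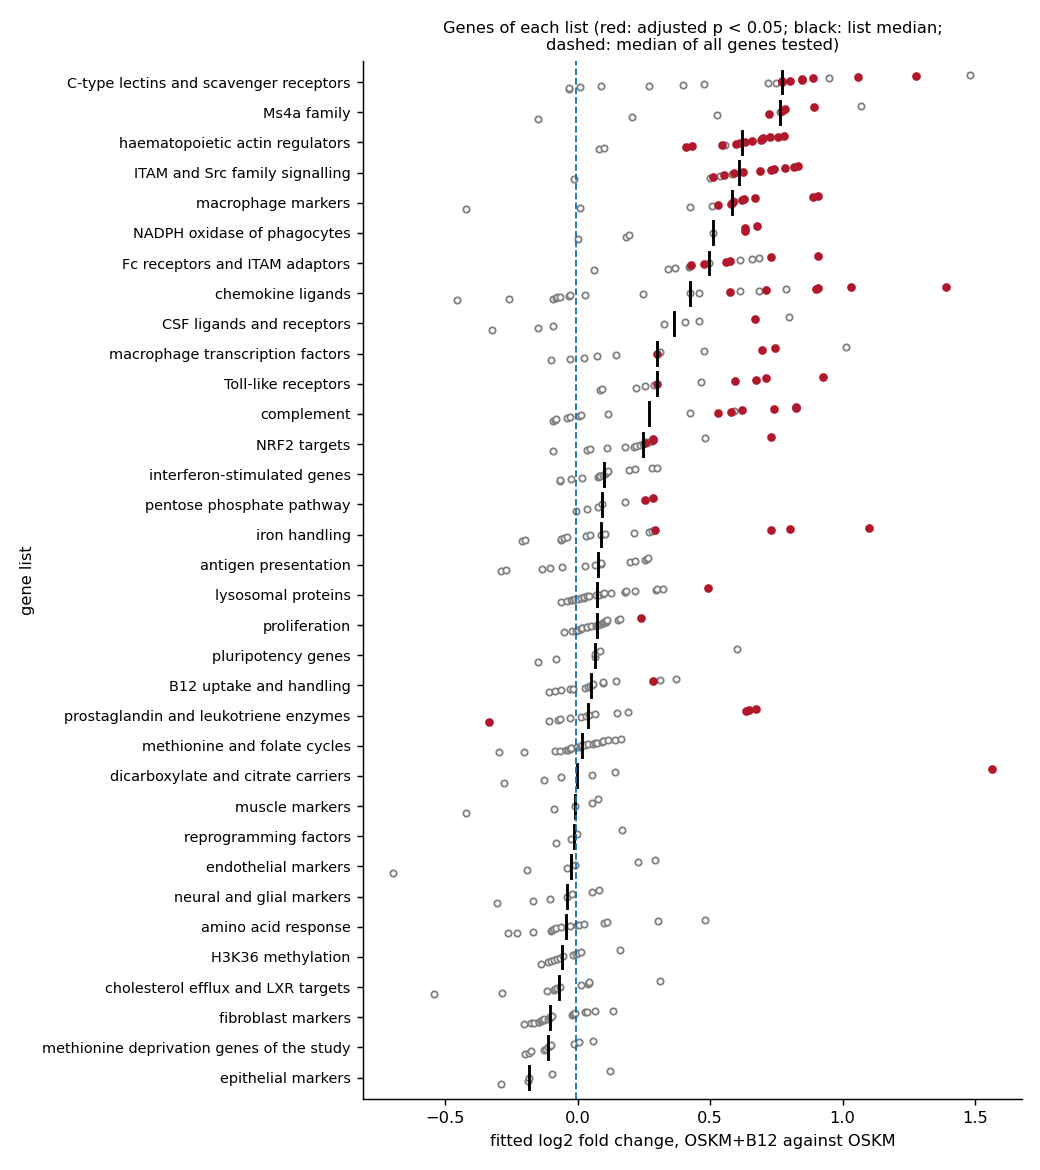
Log2 fold change (OSKM+B12 against OSKM) of the genes of each list, 1 point per gene (filled where adjusted p was under 0.05), with the list median as a black bar and the median over all genes, -0.01, as a dashed line. The medians run from 0.77 for the lectin and scavenger receptor list to -0.18 for the epithelial list.

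Genes that mark cell identity followed. DESeq2, like edgeR, called 0 genes in each of the lists for which 0 calls are given here and above. Of 23 fibroblast markers 0 passed, 7 were at an unadjusted p under 0.05 and 19 were lower with B12 (median -0.10). Col1a1, a fibrillar collagen gene, had -0.01 (SE 0.11), Snai2 had -0.20 (SE 0.06) and Prrx1 had -0.15 (SE 0.05). The summed fibroblast level changed by 1.05-fold, 1.03-fold and 0.897-fold in clones 1, 2 and 3, so the clones did not share a direction. Of 11 epithelial markers 5 were tested and 0 passed, with 0 at an unadjusted p under 0.05 (median -0.18), and of 16 pluripotency genes 6 were tested and 0 passed, with 0 at an unadjusted p under 0.05 (median 0.06). Nanog was at 0.282, 0.380 and 0.269 CPM in OSKM and 0.353, 0.386 and 0.230 CPM in OSKM+B12. Of the endothelial, muscle and neural markers tested (6, 5 and 7 genes) 0 passed, with 1, 0 and 0 at an unadjusted p under 0.05, and the medians were -0.02, -0.01 and -0.04. Of 14 antigen presentation genes, 16 interferon-stimulated genes and 12 genes of cholesterol efflux 0 passed, with 3, 1 and 3 at an unadjusted p under 0.05 and medians of 0.08, 0.10 and -0.07. Of 24 lysosomal genes 1, Ctsc, rose (0.49, SE 0.06), with a median of 0.07.

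The 3 clones differed in the size of the rise. Over the 201 genes the median log2 difference was 0.43 in clone 1, 0.80 in clone 2 and 0.74 in clone 3. The smallest of the 3 differences fell in clone 1 for 165 genes, in clone 2 for 21 and in clone 3 for 15. Clone 1 also had the highest share of counts in the 201 genes among the OSKM libraries without B12. Its differences use the OSKM library that stood apart over pseudogenes. In MEF the medians of the 201 genes were 0.51, 0.75 and 0.69 in clones 1, 2 and 3. Clone 3, whose Pou5f1 and Sox2 levels were lowest, had an OSKM median close to that of clone 2. Leaving out clone 2 left 0 genes past the threshold in edgeR, with 1522 at an unadjusted p under 0.05, and leaving out clone 3 left 13, whereas leaving out clone 1 left 224, of which 152 were among the 201 rises. In these fits 2 clones remain. The library titles give clone 1 another year than clones 2 and 3, so the 224 calls are also those within 1 title year, and the other year holds 1 clone and allows no test.

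Finally, the same supplement was compared in uninduced cells of the same clones, in libraries other than those of the OSKM contrast. Both contrasts came from one fit over the 12 libraries, with a common estimate of spread and common clone terms. The calls of the OSKM and MEF contrasts are therefore not independent. In MEF 263 genes were higher and 1 was lower with B12, 1.37% and 0.00522% of the genes tested, 1.38% in all. Of the 201 rises in OSKM, 173 also rose in MEF, 86.1% of the OSKM list and 65.8% of the MEF list, and 199 had a positive change there. The median change of the 201 in MEF was 0.65, against 0.69 in OSKM, which chose them. For Slc13a3 the MEF change was 1.64 (SE 0.14), for Tfrc 1.15 (SE 0.09), for Hmox1 0.76 (SE 0.06), for Ccl12 1.47 (SE 0.12) and for Spi1 0.63 (SE 0.13). Of the 201, 192 differed between MEF and OSKM by less than 0.25 on the log2 scale. Of the falls, Hpgd had -0.23 (SE 0.06, adjusted p = 0.0926) in MEF and Ttc8 -0.08 (SE 0.05, adjusted p = 0.694), and neither was called there. Over all 19174 genes the changes in OSKM and MEF had a Pearson correlation of 0.315 across genes, which is a description because genes are not independent replicates and both comparisons come from the same embryos.

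**Figure D4:**
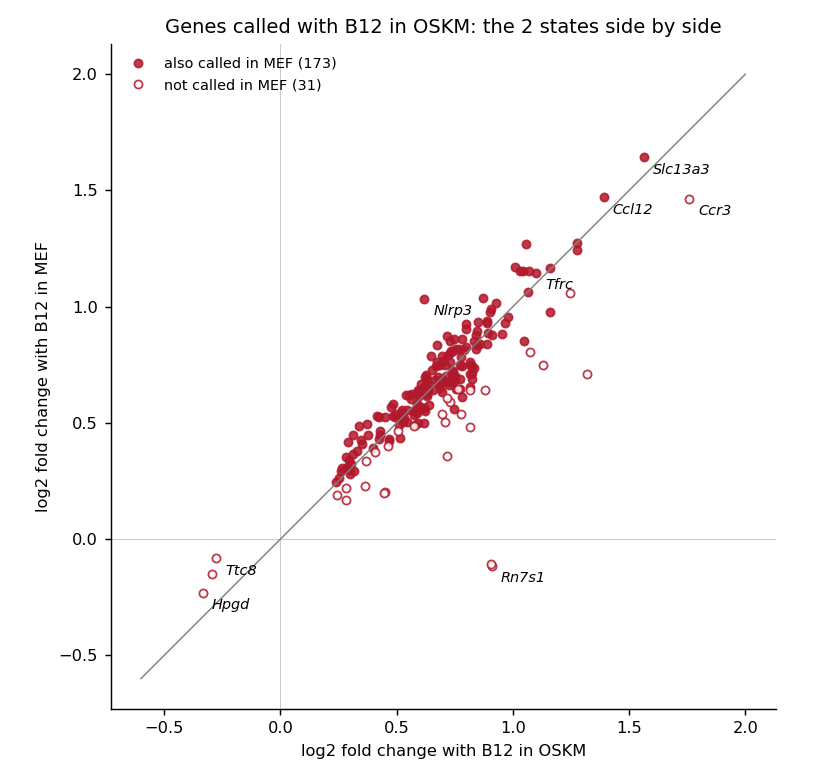
Log2 fold change with B12 in OSKM (x axis) and in MEF (y axis) of the 204 genes called in OSKM, 1 point per gene, filled for the 173 also called in MEF, with the line of equal change. Of the 201 rises 199 lie above 0 on the y axis and 192 differ by less than 0.25 between the axes.

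The difference between the states was tested by the interaction of B12 with induction. In this test clone 3 counts as induced, although its summed level of the 4 factors was not raised. That sum was 143.0 CPM in MEF, 143.9 CPM in OSKM and 134.7 CPM in OSKM+B12. Of the genes tested 0 (0%) passed in edgeR, with 273 at an unadjusted p under 0.05, and 0 in DESeq2, with 120. Among the 201 rises 5 had an unadjusted p under 0.05. No gene was thus shown to differ in its B12 response between induced and uninduced cells, which does not show that the responses were alike. The smallest of these 5 p-values were those of Rn7s1 and Rn7s2, copies of the 7SL RNA of the signal recognition particle, whose reads cannot be told apart. Rn7s1 was at 2.46, 5.10 and 4.37 CPM in OSKM and 6.41, 5.58 and 10.1 CPM in OSKM+B12, a change of 0.91 (SE 0.19, adjusted p = 0.0494), against -0.11 (SE 0.19) in MEF. Clones 1, 2 and 3 differed by 1.37, 0.13 and 1.2 (log2), and the adjusted p was 0.182 once OSKM clone 1 was left out. The libraries were made from poly(A) RNA, and 7SL RNA is not polyadenylated. The histone gene copies Hist1h2ap and Hist1h2ao, with 93.4% and 93.8% shared words, rose by 0.45 and 0.45 in OSKM against 0.20 and 0.20 in MEF. Nlrp3, an inflammasome sensor, had 0.62 (SE 0.12) in OSKM and 1.03 (SE 0.12) in MEF (unadjusted p of the difference 0.0327), and its call in OSKM was lost without OSKM clone 1 (adjusted p = 0.140).

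The macrophage markers were also higher with B12 in MEF, with 9 of 14 called and a median of 0.52. Their sum was higher by 1.32-fold, 1.55-fold and 1.5-fold in MEF clones 1, 2 and 3, and it was higher with B12 in 6 of 6 pairs over both states. These 6 pairs come from 3 embryos and are not 6 replicates. The fibroblast marker sum was 0.977-fold, 0.812-fold and 0.932-fold in the same 3 MEF pairs, lower in each, with a list median of -0.13. The part of macrophage abundance in the rises of the other genes was not tested.

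**Figure D5:**
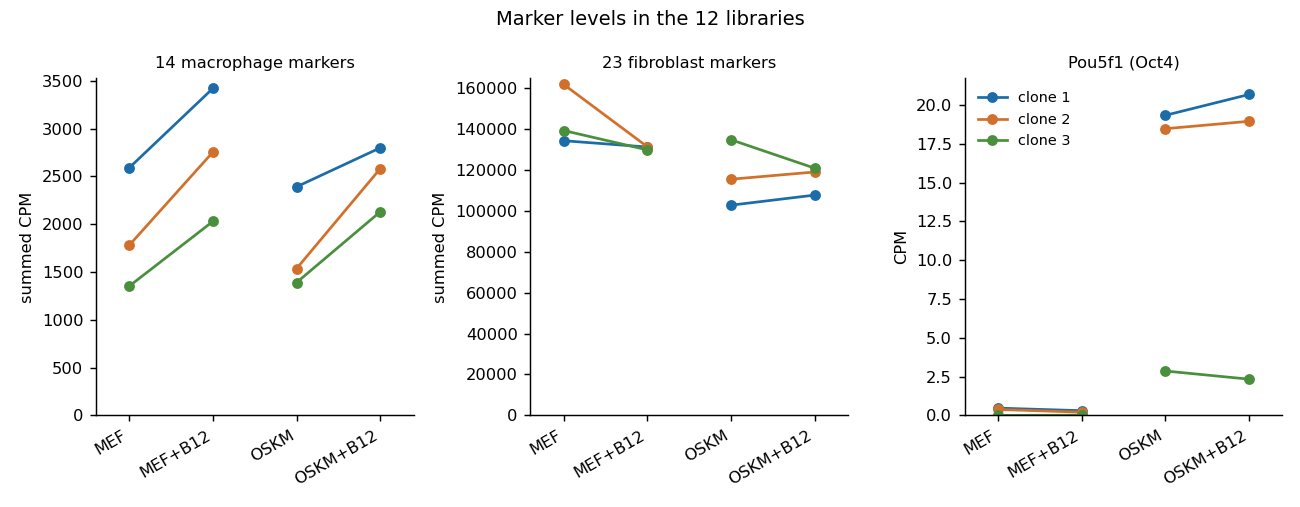
Summed level (CPM) of 14 macrophage markers and of 23 fibroblast markers, and the level of Pou5f1, in each of the 12 libraries, with a line joining the libraries of a clone without and with B12. The macrophage sum is higher with B12 in each of the 6 pairs, which come from 3 embryos. Clone 1 is the highest of the 3 OSKM libraries without B12 at 2391 CPM.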

How the data were processed

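RNA was measured in 12 libraries from MEFs of 3 embryos, each grown with and without doxycycline and with and without B12. The libraries were strand-specific and made from poly(A) RNA. The authors aligned read pairs with STAR 2.5.2 to mm10 (GRCm38), counted them with featureCounts (reverse-stranded), and summed the flow cells of a library. The deposited values are raw counts for 55573 genes. Totals were 56971244 to 79236795 per library, and the counts carry no molecular identifiers. How reads that match several genes were treated is not given in the sources used here, so genes that share 31-base words with others are reported as uncertain.

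Counts were tested with edgeR 4.0.16 in R 4.3.3 by the quasi-likelihood F test after filterByExpr by group, which kept 19174 genes, and TMM scaling (0.934 to 1.06). One fit over the 12 libraries had group and clone as terms (residual df 6, biological coefficient of variation 8.04%). The clone was a block because the labels give 1 embryo per clone, and same-clone libraries deviated together (correlations across genes of 0.270 to 0.687 against at most 0.170 between clones). P-values were adjusted by Benjamini-Hochberg over all genes, with a threshold of 0.05. CPM were computed from the deposited counts with the same scaling. SE is that of the log2 fold change, computed as its absolute value divided by the square root of the F statistic of the test. Exact tests over 3 pairs cannot go below 0.25 and were not used. The embryos are the replicates, 1 culture each.

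Symbols, coordinates (1-based) and gene types came from GENCODE M21 on GRCm38, which matched 55480 identifiers. The named genes are the 20 largest rises and up to 5 falls past the threshold with a log2 CPM averaging 1 or more, a named symbol and the same sign in 3 of 3 clones, together with the genes of the lists. Other genes were chosen after their values were seen. The comparison and 28 lists were chosen with earlier results of these data known, and 8 lists were added after the values were seen. Alternatives were DESeq2 1.42.0, its size factors, library totals, other filters, other blocks, the 6 OSKM libraries alone, and leaving out each clone or the OSKM library of clone 1. The test was tried on simulated data before use. Some genes of the lists are not reported here.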

Additional observations from a re-analysis of the deposited data

Results flagged for a closer look

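Mitd1, a midbody protein gene of cell division, had opposite signs in the states. With B12 it was lower in 3 of 3 clones in OSKM, with differences of -0.17, -0.21 and -0.06 on the log2 scale, and higher in 3 of 3 clones in MEF, with differences of 0.21, 0.07 and 0.10. The fitted changes were -0.15 (SE 0.06) in OSKM and 0.12 (SE 0.06) in MEF, and their difference was -0.27 (SE 0.09). In the edgeR interaction test the unadjusted p was 0.00965 and the adjusted p was 1, so the difference failed the correction over 19174 genes.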

How the results depend on the processing

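The 204 calls of B12 in OSKM became 388 with DESeq2, 364 without the filter and 344 with a replicate block for each clone and state, and 108 in a fit to only the 6 OSKM libraries. Without the replicate block 0 genes passed, with 763 at an unadjusted p under 0.05, and leaving out 1 clone gave between 0 (without clone 2) and 224 calls (without clone 1). The 264 calls of B12 in MEF became 469 with DESeq2, 409 with library totals, 425 without the filter and 443 with a replicate block for each clone and state, 0 without the block (797 at an unadjusted p under 0.05), 0 to 253 when 1 clone was left out, and 334 without the OSKM library of clone 1. The other 20 counts stayed within 1.5 times of their value, among them 140 calls in OSKM without the OSKM library of clone 1 and the interaction, at 0 in each setting. The causes were not tested, except that leaving out a clone leaves fewer libraries. Over 91 named genes and 12 settings, 736 values kept their direction and call, 356 kept the direction without passing, and 0 turned. In the fit to the 6 OSKM libraries alone, 43 of the 91 named genes did not pass. That fit called 7 macrophage markers, 2 Fc receptor and adaptor genes, 2 iron handling genes and 1 NRF2 target. Of 408 list medians under the alternatives, 385 moved by less than the spread between clones and 23 by more.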
